A study of Mus musculus with 6 samples.

Results

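Genes of phosphate handling and mineral deposition were measured in hypertrophic growth plate cartilage of the proximal tibia. They were taken by name (Alpl, Enpp1, Ank, Slc20a1, Slc20a2, Mgp, Sparc, Anxa2, Anxa5 and Anxa6), and all 10 of 10 had a row among the 14882 genes of the deposited table. The libraries came from 3 C57BL/6 mice homozygous for a loss of Adamts17 (Adamts17-/-) and 3 wild type (WT) littermates, all aged 7 days. The sources used here do not say how the Adamts17 allele was made. The hypertrophic zone was cut from frozen sections by laser microdissection and its messenger RNA was linearly amplified before library preparation. Only the word littermates speaks to whether each library is a separate animal, and the p-values reflect the spread among the 6 libraries, which may be technical. The comparison asks whether these genes differ when the secreted metalloprotease Adamts17 is missing.

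Hypertrophic chondrocytes release matrix vesicles, small membrane particles in which the first calcium phosphate crystals form. Crystal growth depends on the balance of inorganic phosphate, which feeds it, and pyrophosphate, which blocks it. Tissue-nonspecific alkaline phosphatase (Alpl) splits pyrophosphate, Enpp1 makes it from nucleotide triphosphates, and Ank is needed for its release from the cell. Slc20a1 and Slc20a2 carry phosphate into cells with sodium, Mgp and Sparc are matrix proteins, and annexins A2, A5 and A6 bind calcium and acidic phospholipids and are found in matrix vesicles.

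The libraries were shallow and uneven. Values are RPKM (reads per transcript length and library size), and dividing value times length by what 1 read is worth gave read equivalents. These totalled 595989 to 2688295 in Adamts17-/- libraries and 722119 to 1662637 in WT libraries. Of 15 genes that nearly every cell uses, Hprt and Tbp were listed at 0 in some library, so a 0 below is only a listed value. Hypertrophic chondrocyte markers, led by Col10a1, summed to 2301 to 5566 RPKM in Adamts17-/- and 3926 to 14417 RPKM in WT. Markers of other tissues were also present: muscle markers reached 16894 RPKM in WT replicate 1, against 258 to 1533 RPKM in the other libraries, and erythroid and myeloid markers reached 108717 and 51724 RPKM in Adamts17-/- replicate 2. Other libraries stood apart too: erythroid markers summed to 26403 RPKM in WT replicate 2, against 1204 to 8308 RPKM in the remaining 4 libraries. Osteoclast markers summed to 3692 RPKM in Adamts17-/- replicate 3 and to 4463 and 4628 RPKM in WT replicates 1 and 3, against 230.3 to 579 RPKM in the other 3 libraries. WT replicate 1 and Adamts17-/- replicate 2 are called the doubted libraries below. None of the 9 marker lists had a gene in the table that was at 0 in all 6 libraries. Adamts17 itself was at 0.00850, 0.0870 and 0.0260 RPKM in Adamts17-/- replicates 1, 2 and 3 and at 0.246, 0.0407 and 0.397 RPKM in WT, too low to check the labels. Fewer cells of a type and less RNA per cell cannot be told apart in such tissue pieces.

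None of the 10 genes passed the test of Adamts17-/- against WT. Calls were made with limma, fitted on log2(RPKM + 1) across 9128 genes with Benjamini-Hochberg adjustment at 0.05. All 10 were among these genes. The test called 0 of the 10, where it called 0% of all genes higher and 0% lower, and the adjusted p was 0.999 for each of the 10. At an unadjusted p under 0.05 there were 0 of the 10 and 2.51% of all genes. The matrix protein gene Mgp and the pyrophosphate enzyme gene Enpp1 were the 2 genes whose groups did not overlap, both lower in Adamts17-/-, where 3.54% of all genes were lower without overlap, 3.09% higher without overlap and 6.63% did not overlap in either direction. Log2 fold changes were below 0 for 7 of the 10 genes and for 47.2% of all genes, with a median of -0.99 over the 10 and 0.08 over all. Genes were tested at 1 RPKM or more in at least 3 libraries, which Enpp1, Slc20a1 and Slc20a2, all below 0, met wholly or mostly through WT. With a minimum of 5 RPKM, which left out Enpp1 and Slc20a2, 5 of 8 were below 0. The median was then -0.39, against 0.17 over all genes. Exact permutation tests over libraries, two-sided, were run for the 10 genes and the 2 ratios below, and the smallest p, 0.1, became 0.4 when adjusted over the 12. Without both doubted libraries, 8 of the 10 were below 0 and the median was -0.97, against 0.10 over all genes. Alpl changed sign in that fit, to -0.94.

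**Figure D1:**
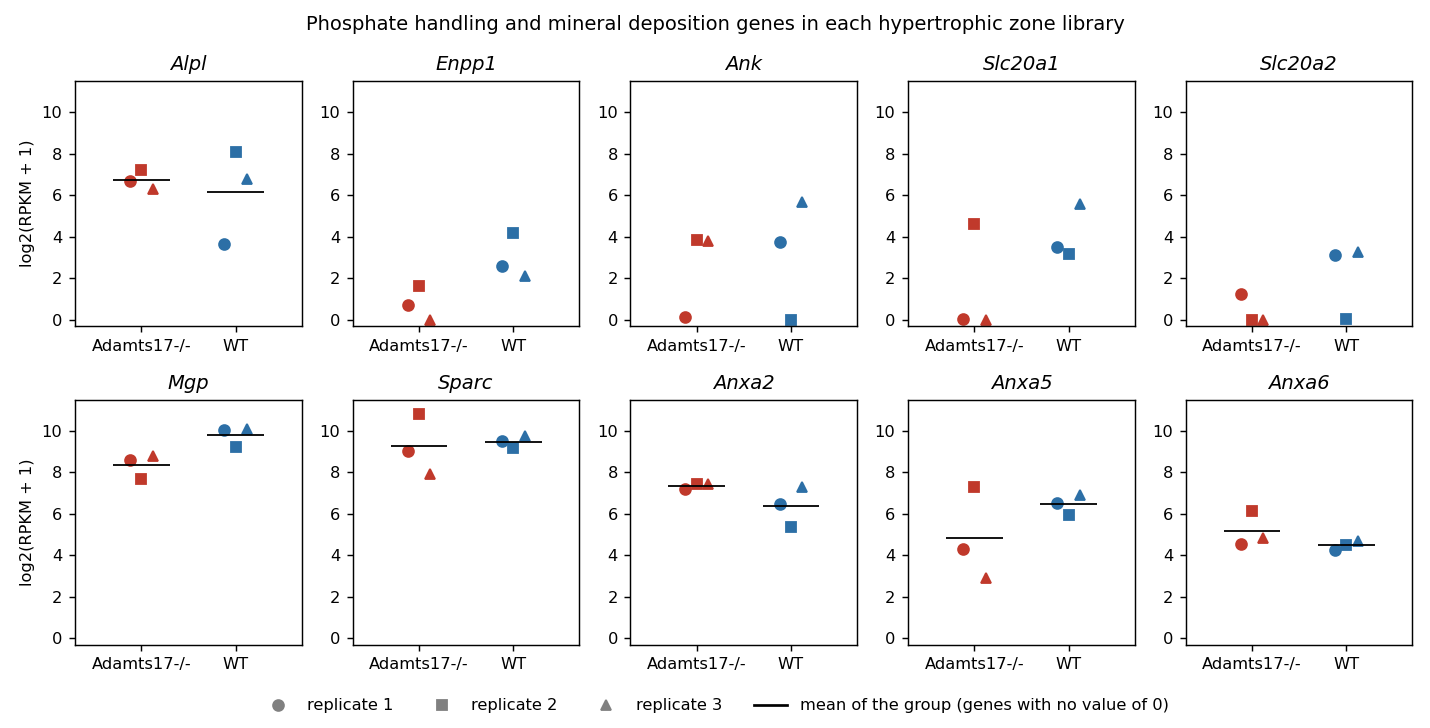
Level of each gene on the log2(RPKM + 1) scale (vertical axis) in the Adamts17-/- libraries (red, left) and the WT libraries (blue, right), with a symbol per replicate and the group mean as a line where no library was at 0. The red and blue points do not overlap for Mgp and Enpp1, and overlap for the other 8 genes.

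Alpl encodes the phosphatase that removes pyrophosphate at the mineralising surface (Entrez gene 11647, chromosome 4, 137741731 to 137796384, transcript length 2983 bp). Its level was 102, 147 and 76.8 RPKM in Adamts17-/- replicates 1, 2 and 3 and 11.7, 266 and 110.1 RPKM in WT replicates 1, 2 and 3. The 3 Adamts17-/- libraries lay within the WT range, whose lowest value came from the library with the muscle transcripts. On the log2(RPKM + 1) scale the fold change was 0.55 ± 1.25 (SE, n = 3 each), with a 95% interval of -2.00 to 3.11. Without WT replicate 1 it was -0.70, without both doubted libraries it was -0.94, and with library weights it was 2.27. These values rested on 146 to 920 read equivalents in Adamts17-/- and 99.3 to 622 in WT.

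Enpp1 encodes the membrane enzyme that makes pyrophosphate (Entrez gene 18605, chromosome 10, 24641411 to 24712102, 3224 bp). It was at 0.619, 2.10 and 0 RPKM in Adamts17-/- and 5.10, 17.1 and 3.26 RPKM in WT. Every Adamts17-/- library lay below every WT library, with 2.05, 14.2 and 0 read equivalents in Adamts17-/- against 47, 43.25 and 9 in WT. The library at 0 allows up to 1.46 RPKM at 3 reads, which covers counting error only and lies under the lowest WT value. Adamts17-/- over WT, the log2 fold change was -2.18 ± 1.38 (SE, n = 3 each, 95% interval -4.99 to 0.62), and the exact permutation p was 0.1, the smallest that 3 libraries against 3 allow. It ran from -2.62 to -1.57 with 1 library left out and was -2.79 without both doubted libraries. Pseudocounts of 0.1 and 4 gave -3.63 and -1.21. Of the 4 libraries with at least 1 RPKM of Enpp1, 3 were WT, so the group where it was higher was enough to place it among the tested genes.

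Ank encodes a membrane protein needed for pyrophosphate release (Entrez gene 11732, chromosome 15, 27466677 to 27594907, 3496 bp). Its level was 0.0815, 13.5 and 13.0 RPKM in Adamts17-/- and 12.4, 0 and 50.8 RPKM in WT. Each group held 1 library at or near 0, and the groups overlapped. The WT library at 0 allows up to 1.09 RPKM at 3 reads. The log2 fold change of -0.55 ± 1.72 (SE, n = 3 each) turned to 0.69 without Adamts17-/- replicate 1 and to 0.72 without WT replicate 3, and was -2.13 without WT replicate 2.

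The proximal promoters of the opposed enzymes Alpl and Enpp1 are shown because their balance is compared below. Both are the 250 bases before the start annotated by RefSeq on GRCm38.p6, minus strand, 5′ to 3′. The Alpl start equals the gene end in the deposited table and the Enpp1 start lies 57 bp outside it. Capitals mark matches, on either strand, to the GC box GGGCGG or the RUNX core TGTGGT.
Alpl, chr4:137796385-137796634: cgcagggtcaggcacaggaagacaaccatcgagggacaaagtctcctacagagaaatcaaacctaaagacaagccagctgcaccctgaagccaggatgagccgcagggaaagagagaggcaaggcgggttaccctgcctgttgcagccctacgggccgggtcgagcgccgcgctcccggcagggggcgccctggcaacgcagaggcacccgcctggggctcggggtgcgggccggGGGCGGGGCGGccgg
Enpp1, chr10:24712160-24712409: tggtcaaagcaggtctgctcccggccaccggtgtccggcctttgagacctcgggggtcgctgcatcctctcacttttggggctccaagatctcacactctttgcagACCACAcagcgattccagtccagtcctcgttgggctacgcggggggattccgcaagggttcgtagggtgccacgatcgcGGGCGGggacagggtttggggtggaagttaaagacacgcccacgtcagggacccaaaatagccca
Alpl held 2 GC box matches, 15 and 10 bases before the start, which share 1 base, and no RUNX core. Enpp1 held 1 GC box match 65 bases before the start and 1 RUNX core match, read on the other strand, 144 bases before it. Of 32851 promoter entries cut to the same length, 32.7% held the GC box and 14% the RUNX core. A TATA box (TATAAA) was found in neither and in 12.4% of all. RefSeq also lists a second Alpl start, at 137766475 inside the gene, whose 250 bases hold 1 TATA box match 192 bases before it, on the other strand, and no GC box or RUNX core. These are letter matches and not bound sites, and no binding was measured.

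The log2 ratio of Alpl to Enpp1 was higher in all 3 Adamts17-/- libraries than in any WT library, but Enpp1 was hardly measured in Adamts17-/- replicates 1 and 3. The log2 ratio of Alpl to Enpp1, each as RPKM + 1, was 5.99, 5.58 and 6.28 in Adamts17-/- replicates 1, 2 and 3 and 1.05, 3.88 and 4.70 in WT replicates 1, 2 and 3. The groups did not overlap, and the mean difference was 2.74 (exact permutation p = 0.1, two-sided, the smallest possible with 3 libraries against 3). The ratio uses the same Enpp1 values as above and is not a separate observation. In Adamts17-/- replicate 3 Enpp1 was at 0, so the ratio there is the Alpl level alone. In Adamts17-/- replicate 1 Enpp1 rested on 2.05 read equivalents. The lowest WT ratio, in replicate 1, came with Alpl at 11.7 RPKM in the library with the muscle transcripts. Its size rests on the pseudocount, being 4.21 with 0.1 and 1.68 with 4, and it was 1.66 without WT replicate 1 and 1.84 without both doubted libraries.

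**Figure D2:**
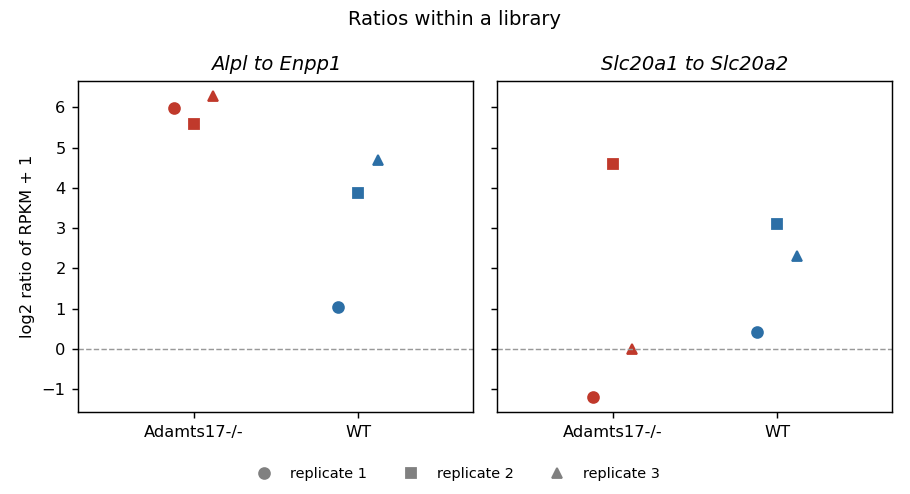
Log2 ratios within a library of Alpl to Enpp1 (left) and of Slc20a1 to Slc20a2 (right), each gene as RPKM + 1, for the Adamts17-/- libraries (red) and the WT libraries (blue). The Alpl to Enpp1 ratios lie between 5.58 and 6.28 in Adamts17-/- and between 1.05 and 4.70 in WT. In Adamts17-/- replicate 3 Enpp1 was at 0, and the transporter ratio of 0 comes from 2 values of 0.

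The phosphate transporter genes were low and uneven. Slc20a1 (Entrez gene 20515, chromosome 2, 129198773 to 129211612, 4162 bp), which carries phosphate with sodium, was at 0.0117, 23.1 and 0 RPKM in Adamts17-/- and 10.5, 7.97 and 46.6 RPKM in WT. In Adamts17-/- it was seen almost wholly in replicate 2, with 202 read equivalents against 0.05 and 0 in replicates 1 and 3, while all 3 WT libraries held it. The WT libraries were thus enough to place it among the tested genes. The fitted log2 fold change was -2.55 ± 1.67 (SE, n = 3 each, 95% interval -5.96 to 0.86). The unadjusted limma p with all 6 libraries was 0.137. Leaving out Adamts17-/- replicate 2 moved the fold change to -4.08, at an unadjusted limma p of 0.0231 (adjusted p 0.999). In that fit 278 of 9128 genes had an unadjusted p under 0.05. Leaving out both doubted libraries gave a fold change of -4.36. It was nearer to 0 without Adamts17-/- replicate 1 (-1.79), without Adamts17-/- replicate 3 (-1.78) and without WT replicate 3 (-1.81). Pseudocounts of 0.1 and 4 gave -4.64 and -1.44. The groups overlapped through that library alone, which also held the erythroid and myeloid transcripts. Their part in this value was not tested.

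Slc20a2, the other transporter of the family (Entrez gene 20516, chromosome 8, 22476700 to 22569616, 3658 bp), was at 1.33, 0 and 0 RPKM in Adamts17-/- and 7.65, 0.0387 and 8.64 RPKM in WT. WT replicates 1 and 3 lay above the Adamts17-/- libraries and WT replicate 2 near 0. Only those WT libraries and Adamts17-/- replicate 1 reached 1 RPKM, so the place of Slc20a2 among the tested genes rested mostly on WT. The 2 libraries at 0 allow up to 0.391 and 1.29 RPKM at 3 reads. By limma its log2 fold change was -1.74 ± 1.03 (SE, n = 3 each, 95% interval -3.84 to 0.36), and ran from -2.78 (without WT replicate 2) to -1.18 (without WT replicate 3) with 1 library left out. It was -1.05 without both doubted libraries, and -3.12 and -0.93 with pseudocounts of 0.1 and 4. The log2 ratio of Slc20a1 to Slc20a2, each as RPKM + 1, was -1.20, 4.59 and 0 in Adamts17-/- and 0.41, 3.11 and 2.30 in WT. Both genes were at 0 in Adamts17-/- replicate 3, so its ratio is set by the pseudocount alone, and 1 of the 2 genes was at or near 0 in Adamts17-/- replicates 1 and 2 and in WT replicate 2. The ratio was thus measured on both sides only in WT replicates 1 and 3. Its exact permutation test, counted among the 12, gave p = 0.7, and no conclusion about the groups is drawn from it.

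Some reads of these genes may belong to neighbours. In the GENCODE M21 annotation of GRCm38, exons of Slc20a1 overlap the opposite-strand transcripts 9830144P21Rik and Gm4430, those of Slc20a2 overlap the opposite-strand gene Smim19, and those of Anxa2 overlap the antisense RNA Gm16144. The sources used here do not say whether the authors counted by strand, so such reads cannot be told apart. Exons of Ank overlap the microRNA gene Mir7117 on the same strand, where counting by strand would not tell reads apart. A search of all annotated transcripts at 95% identity over 100 bp found no other gene matching Alpl, Ank, Slc20a2, Mgp, Sparc or the annexins. Enpp1 matched 12 other genes over 111 to 146 bp.

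Mgp, a vitamin K-dependent matrix protein that holds back calcification of cartilage and arteries, had the smallest pooled within-group SD of the 10 genes on the log2 scale and was lower in all 3 Adamts17-/- libraries (Entrez gene 17313, chromosome 6, 136872435 to 136875805, 599 bp). It was at 385, 203 and 434 RPKM in Adamts17-/- replicates 1, 2 and 3 and at 1046, 601 and 1067 RPKM in WT. It averaged 341 ± 122 RPKM in Adamts17-/- and 905 ± 263 RPKM in WT (SD, n = 3 each), so that the Adamts17-/- mean was 0.377 of the WT mean. The groups did not overlap, yet the difference did not pass across all genes. On the log2(RPKM + 1) scale the fold change was -1.43 ± 0.98 (SE, n = 3 each, 95% interval -3.42 to 0.56), and the exact permutation p was 0.1, the smallest possible. It lay between -1.70 and -1.10 with 1 library left out, and at -0.97 without both doubted libraries.

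The same order of Mgp held by rank within a library. Mgp stood at the 98.9th, 97.0th and 99.0th percentile of the listed genes in Adamts17-/- and at the 99.8th, 99.5th and 99.5th in WT. The counts behind it were 166 to 256 read equivalents in Adamts17-/- and 283 to 1790 in WT. The unadjusted limma p of Mgp was 0.153 in the main fit. Quantile normalization of the 6 libraries gave the smallest of any alternative, 0.0127 (adjusted p 0.9998), with a log2 fold change of -2.14. In that fit 259 of 9128 genes had an unadjusted p under 0.05. Perichondrium and fibroblast markers, cells in which Mgp is also known, summed to 3.46 to 93.6 RPKM in Adamts17-/- and 7.34 to 264 RPKM in WT. Cartilage matrix markers summed to 495 to 1314 RPKM in Adamts17-/- and 968 to 3911 RPKM in WT. Both ranges of sums overlapped between groups, but a sum rests mostly on the most abundant genes. As a mean of log2(RPKM + 1) over the list, cartilage matrix markers were at 4.58, 4.31 and 5.48 in Adamts17-/- and 5.49, 7.26 and 5.88 in WT. Hypertrophic chondrocyte markers were at 5.62, 5.24 and 5.16 in Adamts17-/- and 5.79, 6.14 and 6.63 in WT. By this measure both lists were lower in Adamts17-/- without overlap, as Mgp was, while perichondrium and fibroblast markers overlapped. Col2a1 and Col10a1, the most abundant cartilage matrix and hypertrophic chondrocyte markers, had log2 fold changes of -1.41 and -1.42, near the -1.43 of Mgp in the main fit. Neither was called, and the part of these cells in the Mgp difference was not tested.

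Sparc encodes osteonectin, a secreted glycoprotein that binds collagen and mineral (Entrez gene 20692, chromosome 11, 55394159 to 55420080, 2641 bp). It was at 514, 1767 and 241 RPKM in Adamts17-/- and 730.0, 568 and 847 RPKM in WT. The Adamts17-/- libraries held both the highest and the lowest value, and the WT libraries lay between them. Adamts17-/- over WT, the log2 fold change was -0.23 ± 0.99 (SE, n = 3 each, 95% interval -2.25 to 1.80), and turned to 0.43 without Adamts17-/- replicate 3. Adamts17-/- replicate 2, which held the highest Sparc value, also held the highest sum of the 9 osteoblast markers. It was 5272 RPKM, against 173 to 865 in the other libraries, and Col1a2 alone gave 3610 RPKM of it. The mean log2(RPKM + 1) of the list was 4.20 there, against 2.70 to 3.87 in the others. Bglap and Bglap2 of that list, at 3.39 and 1.61 RPKM, lay below Adamts17-/- replicate 1 and WT replicates 1 and 2. They lay above Adamts17-/- replicate 3 and WT replicate 3. The part of osteoblasts in the Sparc value was not tested.

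Annexin A2 is a calcium-dependent membrane protein that pairs with S100a10 (Entrez gene 12306, chromosome 9, 69453683 to 69491785, 1374 bp). Anxa2 was at 147, 174 and 169 RPKM in Adamts17-/- and 87.1, 39.8 and 157 RPKM in WT. The Adamts17-/- libraries were close together, with a mean of 163 ± 14.5 RPKM, and 2 of them exceeded every WT library, whose mean was 94.6 ± 58.8 RPKM (SD, n = 3 each). The fitted log2 fold change was 0.99 ± 1.14 (SE, n = 3 each, 95% interval -1.34 to 3.31). It was above 0 in each of the 15 alternative fits, from 0.48 to 1.45.

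Annexin A5 binds phosphatidylserine on matrix vesicles (Entrez gene 11747, chromosome 3, 36448924 to 36475887, 1723 bp). Anxa5 was at 18.6, 158 and 6.37 RPKM in Adamts17-/- and 91.4, 59.8 and 118.7 RPKM in WT. Replicates 1 and 3 of Adamts17-/- lay below all WT libraries and replicate 2 above them. By limma its log2 fold change was -1.62 ± 1.32 (SE, n = 3 each, 95% interval -4.32 to 1.07). The unadjusted limma p with all 6 libraries was 0.228. The fold change moved to -2.86 without Adamts17-/- replicate 2, at an unadjusted limma p of 0.0447 (adjusted p 0.999). It moved to -0.65 without Adamts17-/- replicate 3, whose value rested on 7 read equivalents.

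Annexin A6, which carries a duplicated annexin core (Entrez gene 11749, chromosome 11, 54978962 to 55033471, 2661 bp), was at 22.3, 69.3 and 27.1 RPKM in Adamts17-/- and 18.0, 21.6 and 25.0 RPKM in WT. The WT libraries agreed closely, at 21.5 ± 3.50 RPKM, and Adamts17-/- averaged 39.6 ± 25.9 RPKM (SD, n = 3 each), raised by replicate 2. On the log2(RPKM + 1) scale the fold change was 0.68 ± 1.33 (SE, n = 3 each, 95% interval -2.02 to 3.39), 0.20 without that library and 0.08 without both doubted libraries. Upper-quartile scaling and quantile normalization gave 0.39 and 0.42.

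**Figure D3:**
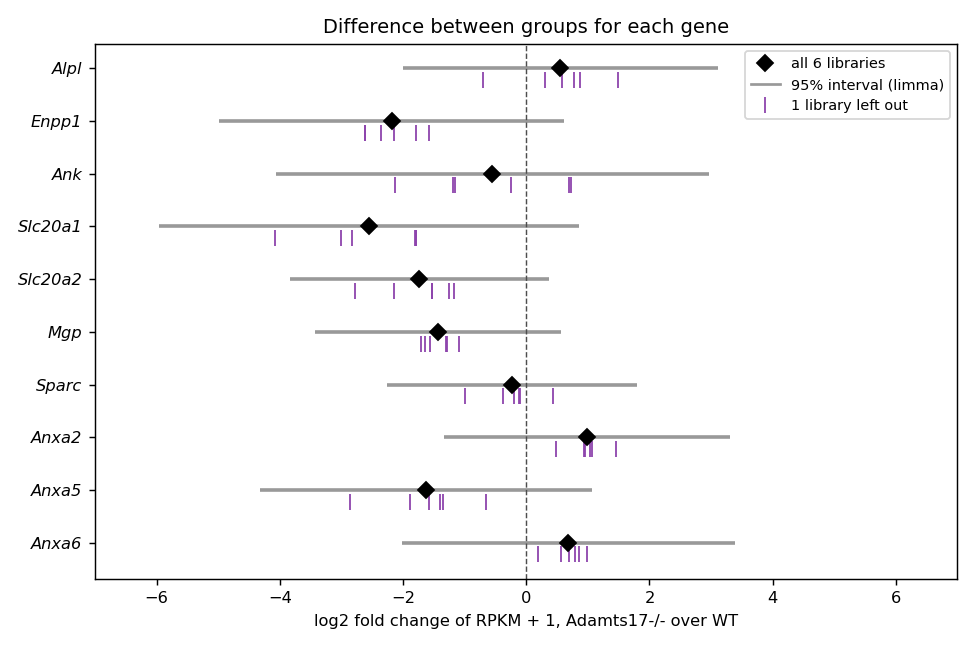
Log2 fold change of RPKM + 1, Adamts17-/- over WT (horizontal axis), for each gene with all 6 libraries (diamonds), the 95% interval from limma (grey lines) and the values with 1 library left out (purple ticks). All 10 intervals include 0, and the ticks stay on one side of 0 for 7 genes, crossing it for Alpl, Ank and Sparc.

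Sparc and Mgp held the highest levels of the 10 genes in each of the 6 libraries, and the order of the low genes was unsettled. By median RPKM over the 6 libraries the order was Sparc (649), Mgp (518), Anxa2 (152), Alpl (106), Anxa5 (75.6), Anxa6 (23.7), Ank (12.7), Slc20a1 (9.24), Enpp1 (2.68) and Slc20a2 (0.685). Mgp exceeded Anxa2 in 6 of 6 libraries, Anxa2 exceeded Alpl in 5, and Anxa6 exceeded Ank in 5. Anxa5 exceeded Anxa6 and Ank exceeded Slc20a1 in 4. The neighbours Sparc and Mgp, Alpl and Anxa5, Slc20a1 and Enpp1, and Enpp1 and Slc20a2 stood in that order in 2, 3, 3 and 2 libraries, so their levels did not differ beyond the spread. Sparc exceeded Mgp in Adamts17-/- replicates 1 and 2, and Mgp exceeded Sparc in the other 4 libraries. Sparc and Mgp together made up 69.8% to 77.0% of the summed RPKM of the 10 genes in Adamts17-/- and 73.9% to 87.9% in WT.

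**Figure D4:**
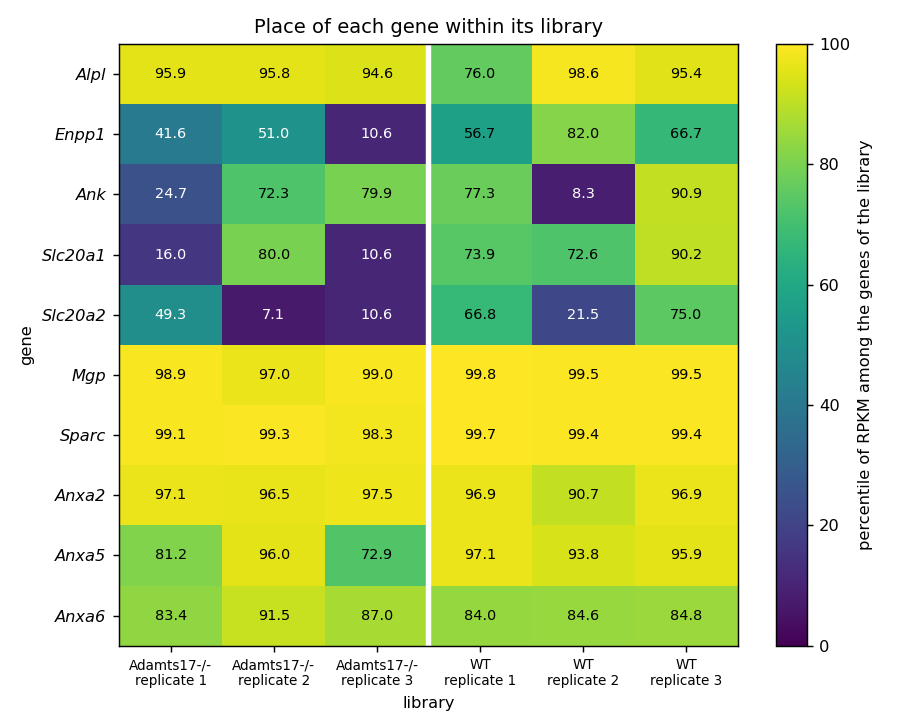
Percentile of the RPKM of each gene (rows) among all genes listed for a library (columns, Adamts17-/- left and WT right of the white line), where genes listed at 0 share 1 tied percentile. Mgp, Sparc and Anxa2 stand at or above 90.7 in all 6 libraries, and the transporter, Ank and Enpp1 rows hold the low values.

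Spread between libraries of 1 group differed widely among the 10 genes and, on the log2(RPKM + 1) scale, did not follow their level. The within-group SD on the log2 scale was 0.53 for Mgp, 0.62 for Anxa6 and 0.70 for Anxa2, at the 2.45th, 4.47th and 6.44th percentile of the 9128 genes. It was 2.08 for Slc20a1 and 2.55 for Ank, at the 74.1st and 88.6th percentile. Enpp1, a low gene, was at 0.96 and Sparc, the highest by median, at 1.04. Slc20a2, the lowest gene, was at 1.37, below Alpl and Anxa5, which at 1.63 and 1.64 stood near the middle of all genes. Enpp1, Ank, Slc20a1 and Slc20a2 were listed at 0 in at least 1 library, as were 34.2% of all genes tested. The pseudocount of 1 compresses the spread of such low genes. With a pseudocount of 0.1 the limma SE was 2.07 for Enpp1, 2.18 for Slc20a2, 2.38 for Slc20a1 and 2.64 for Ank. For the other genes it ran from 0.81 (Mgp) to 1.33 (Anxa5), so on that scale the low genes had the larger spread.

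**Figure D5:**
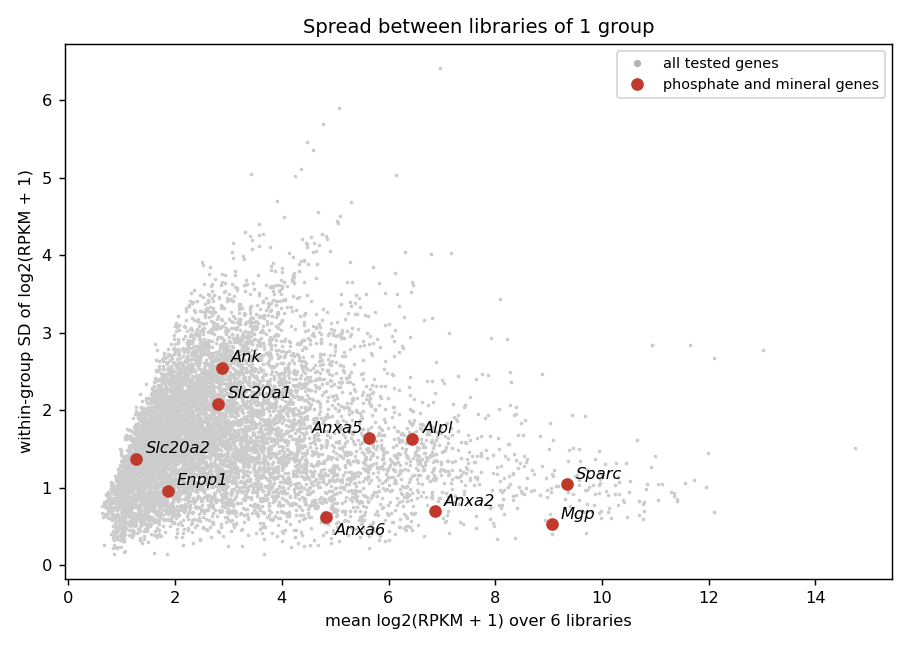
Within-group SD of log2(RPKM + 1) (vertical axis) against the mean over 6 libraries (horizontal axis) for all 9128 tested genes (grey) and the 10 phosphate and mineral genes (red). Mgp, Anxa2 and Anxa6 lie at the low edge of the cloud, and Ank, at 2.55, has the largest SD of the 10.

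The profiles of the 10 genes over the 6 libraries were not alike. Likeness was the root-mean-square difference between log2 profiles, each centred on its own mean. The closest of the 10 to each other were Sparc and Anxa6, at 0.69, and 275 other genes were closer to Sparc than Anxa6 was. The gene nearest to Mgp was the gap junction gene Gja1 (0.24), that nearest to Alpl was Htatip2 (0.33), that nearest to Enpp1 was Bud31 (0.23) and that nearest to Ank was Wdr75 (0.15). Slc20a1 was nearest to Ube2a (0.34), Slc20a2 to Clk4 (0.24), Sparc to Tagln2 (0.17), Anxa2 to Rnf187 (0.04), Anxa5 to Gm15421 (0.28) and Anxa6 to Rpl17 (0.21). With 9128 genes and 6 libraries, near matches of this size describe these libraries only.

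Other genes of phosphate and mineral handling gave no call either. Of 54 listed genes 43 had a row and 30 were tested, and 0 were called by limma over all genes and 0 had an unadjusted p under 0.05. Their log2 fold changes were above 0 for 11 and below 0 for 19, with a median of -0.23 against 0.08 over all genes. Among phosphatases and pyrophosphate enzymes 3 of 4 were above 0 (median 0.55), among phosphate transporters 1 of 4 (-0.98), among annexins and partners 5 of 10 (0.08), among Gla proteins and their carboxylation 1 of 6 (-0.49), in the SPARC family 0 of 2 (-1.08) and among acidic mineral matrix proteins 1 of 4 (-0.39).

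The most abundant genes of these lists did not separate the groups. Ppa1, the cytosolic pyrophosphatase, was at 200.4, 25.1 and 174 RPKM in Adamts17-/- and 45.0, 32.5 and 18.1 RPKM in WT (log2 fold change 1.65 ± 1.27, SE). Replicates 1 and 3 of Adamts17-/- exceeded all WT libraries and replicate 2 did not. Enpp2, the secreted lysophospholipase autotaxin of the Enpp family, was at 12.8, 25.0 and 14.7 RPKM in Adamts17-/- and 15.3, 110.2 and 66.7 RPKM in WT (-1.48 ± 1.34). Slc25a3, which carries phosphate into mitochondria, was at 1.09 ± 1.28, and -0.57 without WT replicate 2. Xpr1, the phosphate exporter, was at -0.21 ± 1.60.

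S100a10, the partner of annexin A2, was at 416, 293 and 424.5 RPKM in Adamts17-/- and 155, 666 and 834 RPKM in WT. Its groups overlapped (log2 fold change -0.25 ± 1.03, SE), as did those of S100a6, another small calcium-binding protein (0.64 ± 1.20). Vkorc1, which recycles the vitamin K needed to make active Mgp, was at 7.81, 77.7 and 0 RPKM in Adamts17-/- and 35.6, 3.40 and 51.5 RPKM in WT (-1.20 ± 1.63). Bglap2, an osteocalcin gene with a near-identical copy in Bglap, was at -0.62 ± 1.66 and is uncertain for that reason. In the SPARC family Smoc2 was at -1.96 ± 1.34 and Spock1 at -0.19 ± 1.65. The acidic proteins Spp1 and Ibsp, at -1.31 ± 1.12 and 1.21 ± 1.35, differed in sign.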

How the data were processed

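Gene expression was measured by RNA sequencing in 6 libraries. Per the labels' protocols, RNA of microdissected tissue (PicoPure) was amplified (RiboAmp HS PLUS) and built into Illumina TruSeq libraries. The authors deposited 1 table, whose name holds the letters TMM (trimmed mean of M-values scaling). The unit is not named. The authors' values were taken to be RPKM since value times transcript length fell on multiples, and simple fractions down to 1 in 20, of 1 step per library. Of values from 1 to 20 read equivalents, 24.1% to 34.4% were whole within 0.01, so no count model was fitted. Aligner, counter and build: not given in the sources used here. The table's gene starts equalled those of RefSeq on GRCm38.p6 for 7 of the 10 genes, and 89.9% of 13901 genes lay within 1000 bp, so coordinates are the table's own.

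Groups and replicate numbers came from titles, and columns from descriptions. Genes with at least 1 RPKM in at least 3 libraries (9128) were tested as log2(RPKM + 1) with limma 3.58.1 in R 4.3.3 (intensity trend, two-sided, Benjamini-Hochberg adjustment at 0.05). This scale understates changes of low genes. Ratios were compared by exact permutation tests. The fit was checked on simulated data with a large added shift, and had to pass only at a spread far below the real one. The check thus does not show what size of change the test could find here. Python 3.11.15, BLAST 2.17.0 and RefSeq promoter entries, which matched 7 of the 10 genes (all but Mgp, Slc20a2 and Anxa6), were also used. The genes, lists, alternatives and naming rule (the 10 genes, the 2 most abundant tested genes per list, the nearest profile of each gene, and the most abundant gene of a marker list) were chosen with earlier results of these data known. Alternatives were other pseudocounts, filters, scalings, library weights, a replicate block and libraries left out.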

Additional observations from a re-analysis of the deposited data

How the results depend on the processing

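None of the 10 genes was called in any of 15 alternative fits (148 values, smallest adjusted p 0.454), and their median log2 fold change of -0.99 ran from -1.64 without WT replicate 2 to -0.39 with a minimum of 5 RPKM, which left 8 of the 10. Over all genes, library weights called 1 lower (Myl1) and leaving out 1 library called 0 to 5 higher, 5 without Adamts17-/- replicate 3. Upper-quartile scaling moved the median of all genes by -0.23 and library weights by -0.17. With the replicate block 0 of the 10 were called and their median was -0.99. The deviations of libraries that share a number correlated at -0.0075, -0.35 and -0.10, so pairing was not seen. Of the 10 genes, 3 changed sign in 5 values. With 1 library left out Alpl took values of -0.70 to 1.5, Ank from -2.13 to 0.72 and Sparc from -1.0 to 0.43. Alpl was -0.94 without both doubted libraries and 2.27 with library weights, there at an unadjusted limma p of 0.0309 (adjusted p 0.527). In the fit with library weights 799 of 9128 genes had an unadjusted p under 0.05. The Slc20a1 to Slc20a2 log2 ratio, not measured in all libraries, had a difference of -0.81, which lay between -2.54 and 0.35 when single libraries were dropped. Of the 12 named list genes, 8 changed sign in 22 values. With 1 library left out Xpr1 ran from -0.91 to 0.97, Spock1 from -2.00 to 0.78, S100a10 from -1.0 to 0.21, S100a6 from -0.054 to 1.06, Ibsp from -0.23 to 3.07, Bglap2 from -1.91 to 0.37, Vkorc1 from -2.78 to 0.37 and Slc25a3 from -0.57 to 2.04. A pseudocount of 4 gave Xpr1 0.017 and Spock1 0.15, quantile normalization gave Spock1 0.042, and library weights gave Slc25a3 -0.13 and S100a10 0.905. Without both doubted libraries Bglap2 was 0.66, Spock1 0.85 and Ibsp -1.29. None of these had passed, and the causes were not tested. Depth limits Enpp1, Slc20a1 and Slc20a2, with 0 to 5 read equivalents in 2 or more Adamts17-/- libraries.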

Other observations

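Further annexin genes of the list, which share the calcium-binding core of Anxa2, Anxa5 and Anxa6, differed in how much they varied between libraries of 1 group. Their within-group SD on the log2 scale ran from 1.01 for Anxa7 to 3.84 for Anxa1, all above those of Anxa2 (0.70) and Anxa6 (0.62). Anxa7 was the 1 gene of the 30 tested list genes whose groups did not overlap, and it was named after its values were seen. It was at 27.9, 35.4 and 56.1 RPKM in Adamts17-/- replicates 1, 2 and 3 and at 6.50, 1.31 and 13.4 RPKM in WT, all higher in Adamts17-/-. Its limma estimate was 2.64 ± 1.44 on the log2 scale (SE, n = 3 each, unadjusted p = 0.0774, adjusted p = 0.999), where 3.09% of all tested genes were higher without overlap. With 1 library left out it ran from 1.91 to 3.23.

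Anxa1 was at 39.1, 1015 and 0 RPKM in Adamts17-/- and 119, 14.6 and 275 RPKM in WT. Its highest value came from Adamts17-/- replicate 2, in which the 8 myeloid markers with a row summed to 51724 RPKM, against 33.9 to 2109 RPKM in the other libraries. Its second highest value came from WT replicate 3, in which those markers summed to 33.9 RPKM, the lowest of the 6 libraries. The part of myeloid cells in these values was not tested. Anxa4 was at 12.6, 9.76 and 0.78 RPKM in Adamts17-/- and 7.90, 89.6 and 23.9 RPKM in WT, and its groups overlapped.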
